A study of Mus musculus with 21 samples.

Results

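Whole-kidney microRNAs (miRNAs) 14 days after a single dose of folic acid were compared with those at day 0. All 3 day 14 and all 3 day 0 libraries entered, 6 of the 21 libraries of a time course with 3 libraries at each of 7 days. All miRNAs past a low-count filter were described, which left 431 of the 1125 listed. The kidneys came from male BALB/c mice aged 12 weeks, and folic acid was given at 250 mg/kg in a sodium bicarbonate solution. The label of the comparison group gives it as day 0 of the same course. The labels say neither whether the day 0 mice were injected nor whether each library is a separate animal, and no vehicle group of a later day was analysed here. Strain, sex, age at the start and tissue were the same in both groups, so the groups differ in folic acid, its vehicle and 14 days of time, which cannot be told apart. Day 14 is taken as a time of established fibrosis in this model, but no measure of fibrosis, histology or kidney function was in the files.

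Folic acid at a high dose crystallises in the tubules and damages the tubular epithelium, and the kidney then passes through inflammation and repair into interstitial scarring. A miRNA is a short RNA cut from a hairpin precursor, which yields a 5p and a 3p arm; loaded into an Argonaute protein, it pairs with messenger RNAs mainly through its seed, the bases just after the 5′ end, and lowers their translation and stability. Because each cell type of the kidney carries its own miRNAs, those of a whole kidney reflect both which cells are present and what each cell expresses.

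The mature sequences of the miRNAs on which the results turn were taken from RefSeq (GRCm38.p6), written 5′ to 3′ with the seed, bases 2 to 8, in capitals. RefSeq gave a sequence for 318 of the 431 miRNAs tested and for 128 of the 185 called below. The first set holds 7 of the largest rises and miR-146a-5p, which rose less; it is shown because 2 pairs share a seed.
miR-146b-5p: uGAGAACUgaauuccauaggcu
miR-146a-5p: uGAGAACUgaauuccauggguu
miR-132-3p: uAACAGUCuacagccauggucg
miR-212-3p: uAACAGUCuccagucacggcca
miR-214-3p: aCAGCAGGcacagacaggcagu
miR-199a-5p: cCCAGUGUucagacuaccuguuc
miR-298-5p: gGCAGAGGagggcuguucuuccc
miR-130b-3p: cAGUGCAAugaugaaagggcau
The pair miR-146a-5p and miR-146b-5p has the seed GAGAACU, and the pair miR-132-3p and miR-212-3p has AACAGUC. On GRCm38.p6, miR-146b-5p lies at chr19:46342790-46342811 (+ strand) in an intron of Mfsd13a by the GENCODE annotation of that build. The pair miR-132-3p, at chr11:75173723-75173744 (+ strand), and miR-212-3p, at chr11:75173443-75173464 (+ strand), lies in an intron of the noncoding transcript 1700016P03Rik. A copy of miR-199a-5p at chr1:162217844-162217866 (+ strand) and miR-214-3p at chr1:162223438-162223459 (+ strand) both lie in exons of the antisense transcript Dnm3os.

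The second set holds miRNAs that were lower at day 14. It is shown for the shared seeds of the miR-192 and miR-29 families and for both arms of miR-101a.
miR-192-5p: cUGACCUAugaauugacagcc
miR-215-5p: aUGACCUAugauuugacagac
miR-29a-3p: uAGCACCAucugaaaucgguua
miR-29c-3p: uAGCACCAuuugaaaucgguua
miR-101a-3p: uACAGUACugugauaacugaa
miR-101a-5p: uCAGUUAUcacagugcugaugc
miR-3073b-3p: cUGGCGCCaacugugaccacug
miR-1199-5p: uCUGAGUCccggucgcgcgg
The miR-192-5p and miR-215-5p seed is UGACCUA, and that of miR-29a-3p and miR-29c-3p is AGCACCA. miR-29c-3p lies at chr1:195037600-195037621 (+ strand) in an exon of the noncoding transcript A330023F24Rik, and miR-192-5p lies at chr19:6264857-6264877 (+ strand) outside any other annotated gene. The third set is shown because miRNAs with 1 seed, AUUGCAC, were called in opposite directions.
miR-25-3p: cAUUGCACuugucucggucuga
miR-92b-3p: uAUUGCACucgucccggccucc
miR-363-3p: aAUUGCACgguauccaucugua
miR-32-5p: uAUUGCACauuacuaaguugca

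The deposited values are reads scaled to a fixed library total (CPM), from which the whole reads were recovered. The day 14 libraries held 5495340, 3115403 and 3972657 reads, against 3876720, 5886820 and 3571696 at day 0, within the range of 2875675 to 7110546 over all 21. Levels below are CPM scaled by the trimmed mean of M values (TMM), given in the order of replicates 1, 2 and 3. The kidney label was checked against marker miRNAs. The tubule-enriched miRNAs miR-10a-5p and miR-192-5p made up 17.5% ± 0.614 and 6.58% ± 0.564 of the reads at day 14 (mean ± SD, n = 3). Over all 21 libraries together, the liver marker miR-122-5p had 32 reads and the brain marker miR-124-3p and the muscle marker miR-206-3p had 2 reads each. Other markers of the same lists were present: miR-375-3p of islets and other endocrine cells had 40923 reads, miR-9-5p of the nervous system 22498 and miR-133a-3p of muscle 2035.

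The day 14 libraries lay farther apart than those of any other day, and replicate 3 stood apart from the other day 14 libraries. Over the 431 miRNAs the median SD of the log2 level among the 3 libraries was 0.243 at day 14 and between 0.131 and 0.206 at the other 6 days. The root mean square log2 difference was 0.426 between replicates 1 and 2, 0.525 between 1 and 3, and 0.548 between 2 and 3. Replicate 3 was on average nearer to the day 7 libraries (0.441) than to the other day 14 libraries (0.537) or to day 28 (0.661). Replicate 1 lay at nearly equal distances from day 28 (0.445), day 7 (0.464) and its own day (0.476), and replicate 2 was nearer to its own day (0.487) and day 28 (0.491) than to day 7 (0.550). On the first principal component, with 41.1% of the variance, replicates 1, 2 and 3 were at 1.71, 1.20 and 6.87, day 7 ran from 5.35 to 8.49 and day 28 from -5.39 to -2.66. All 3 day 14 libraries stayed well away from day 0, at -10.6 to -10.2. In reads replicate 3 was the middle of the 3, and its TMM factor was 1.07 against 0.924 and 0.952. Results below are therefore given with and without replicate 3, which stays in its labelled group.

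**Figure D1:**
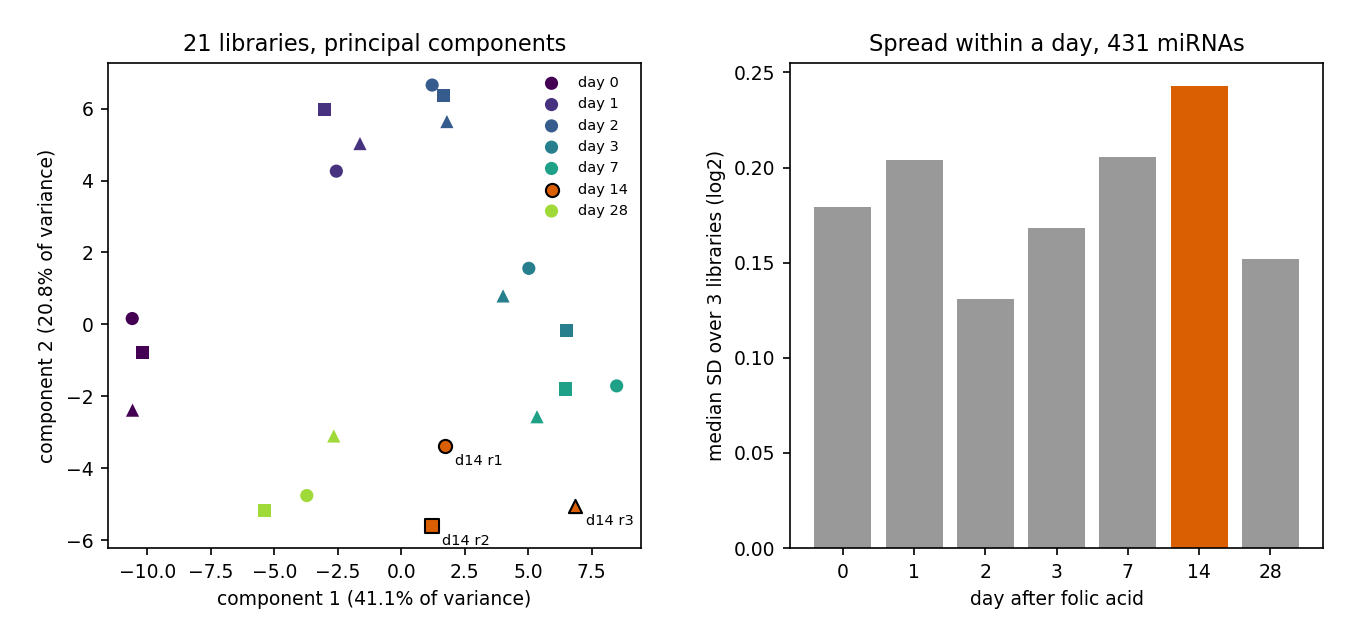
Left, the 21 libraries on the first 2 principal components of log2(CPM + 1), with day by colour and replicates 1, 2 and 3 as circle, square and triangle. Right, the median over 431 miRNAs of the SD among the 3 libraries of each day, in log2 units. Day 14 replicate 3 sits among the day 7 libraries on the first component, at 6.87, and day 14 has the highest bar, 0.243.

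At day 14 the kidneys held more of the miRNAs known from inflammation, leukocytes and fibroblasts and less of the miR-101 miRNAs and of some miR-29 and tubular ones, while other tubular miRNAs were higher. Of the 431 miRNAs, 185 were called different from day 0 (42.9%), of which 108 were higher (25.1%) and 77 lower (17.9%). These shares are the background for each count of list members below, and a list near them is not set apart by its count. A miRNA was called at a Benjamini-Hochberg adjusted p under 0.05 in a limma fit of log2(CPM + 1) over all 21 libraries, and fold changes are on that scale, which understates those of scarce miRNAs. The rises were the larger: the median log2 fold change was 0.99 among those called higher and -0.62 among those called lower, and 53 rises but 12 falls reached 1 log2 unit. A miRNA scarce at day 0 could pass the filter through later days alone, which favours rises. With a filter at a mean of at least 10 CPM instead, 88 were called higher and 65 lower. The median over all tested was 0.05, with a median SE of 0.18. The 3 day 14 libraries did not overlap the 3 day 0 libraries for 205 miRNAs (47.6%), 171 of them called. Without day 14 replicate 3, 159 were called (93 higher, 66 lower), 148 of them shared with the 185. These p-values reflect only how far the libraries of a day differ, which may be technical. Each SE pools that spread over all 7 days, of which day 14 had the widest, so it does not carry the day 14 spread alone. In a whole kidney, fewer cells of a type and less RNA per cell cannot be told apart.

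**Figure D2:**
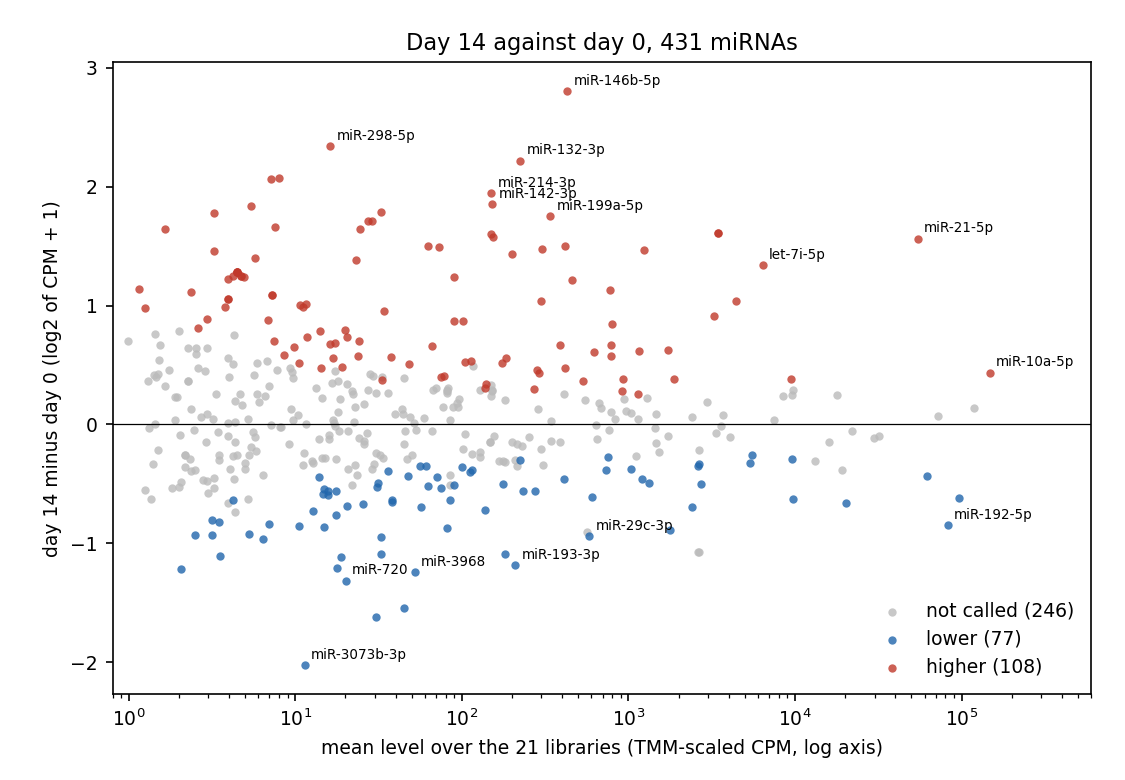
Each point is 1 of 431 miRNAs, with its mean CPM over the 21 libraries (log axis) against its log2 difference, day 14 minus day 0. The mean is of the deposited CPM, not TMM-scaled as the axis title has it. Red points (108) were called higher, blue points (77) lower, and grey points were not called; the highest point is miR-146b-5p at 2.80 and the lowest miR-3073b-3p at -2.03.

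The largest rise was that of miR-146b-5p, which NF-kB induces and which dampens signalling below Toll-like receptors. It was at 92.2, 87.2 and 128 CPM in the day 0 libraries and at 737, 683 and 715 CPM in the day 14 libraries. All day 14 libraries lay far above day 0 and close to each other, and the log2 fold change was 2.80 (SE 0.20, adjusted p = 3.93e-09), or 2.78 without replicate 3. Its seed partner miR-146a-5p, induced by the same factor, rose less: its levels were 215, 200.2 and 339.5 CPM at day 0 and 596, 574 and 369.8 CPM at day 14. Here replicate 3 was the lowest of day 14 and only just above the highest day 0 library; the log2 fold change was 1.04 (SE 0.21, adjusted p = 0.000591) and 1.24 without that library. The other pair with a common seed, miR-132-3p and miR-212-3p, is made from 1 transcript and is known in neurons as a target of CREB. Day 0 gave 56.5, 51.3 and 46.0 CPM of miR-132-3p and day 14 gave 225, 178 and 351 CPM. For miR-212-3p the values were 8.07, 6.88 and 4.63 CPM and 18.9, 19.6 and 39.8 CPM. Replicate 3 held the highest level of both, and the log2 fold changes of 2.22 (SE 0.20, adjusted p = 4.48e-08) and 1.79 (SE 0.24, adjusted p = 5.46e-06) became 1.93 and 1.44 without it.

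Among mesenchymal miRNAs, miR-214-3p and a copy of miR-199a-5p are processed from Dnm3os, a transcript active in fibroblasts and pericytes. The level of miR-214-3p was 46.9, 43.4 and 50.1 CPM at day 0 and 148, 140.0 and 297 CPM at day 14. Replicate 3 held the highest level by far, and the log2 fold change of 1.95 (SE 0.21, adjusted p = 2.55e-07) was 1.58 when it was left out. The level of miR-199a-5p went from 146, 159 and 185 CPM to 535, 484 and 643 CPM, a log2 fold change of 1.75 (SE 0.15, adjusted p = 3.12e-08). All 6 members of the mesenchymal list were higher, with or without replicate 3, with a median log2 fold change of 1.68. The summed level of the list was 4585, 3769 and 3799.6 CPM at day 0 and 11449, 10043 and 16761 CPM at day 14, highest in replicate 3. These 6 are not independent: miR-199a-3p and miR-199b-3p hold the same values in every library, and the arms of a hairpin share a precursor. The smooth muscle miRNAs moved less, with 1 of 4 higher, miR-145-5p (0.85, adjusted p = 0.00778). The other arm of that hairpin, miR-145-3p, went the other way and was not called (-0.31). The cluster neighbour miR-143-3p, among the most abundant miRNAs of the kidney, was at 79910.3, 76289 and 61531 CPM at day 0 and 72585, 75195 and 79612 CPM at day 14, and these groups overlap.

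Leukocyte miRNAs were higher as well, with 7 of the 10 tested called higher, 0 lower, and a median of 1.48. By edgeR, with library totals, and without day 14 replicate 2, 8 were called higher. The summed level of the list was 940.0, 1129.9 and 1238 CPM at day 0 and 2811, 2340.0 and 2409 CPM at day 14. miR-142-3p, found in all blood cell lineages, was at 54.7, 52.8 and 53.5 CPM and then at 201, 199 and 189 CPM. Its day 14 libraries differ little, and the log2 fold change was 1.85 (SE 0.19, adjusted p = 1.34e-07), or 1.86 without replicate 3. The myeloid miR-223-3p rose from 32.3, 46.5 and 52.7 CPM to 137, 101 and 158 CPM, a log2 fold change of 1.57 (SE 0.21, adjusted p = 5.36e-06). The 3 not called were miR-150-5p, abundant in mature lymphocytes (0.13, adjusted p = 0.594), miR-155-5p, induced in activated leukocytes (0.28, adjusted p = 0.0639), and miR-511-5p (0.76, adjusted p = 0.123). In miR-150-5p replicate 3 was the lowest of day 14, with 402, 349 and 258 CPM. Of the 8 miRNAs listed as NF-kB induced, 6 were higher and 0 lower, with a median of 1.51; several of them stand in the other lists too.

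The injury list, miRNAs that earlier kidney injury studies report as raised, had all 10 of its members higher, with or without replicate 3, and a median of 1.72. It was drawn up with results of these data known, so its direction is not independent evidence. Its most abundant member is miR-21-5p, which is raised in many fibrotic organs. The levels were 15616, 15742 and 12862 CPM at day 0 and 41075, 34173 and 58201 CPM at day 14, a log2 fold change of 1.56 (SE 0.15, adjusted p = 1.07e-07), or 1.33 without replicate 3. It made up 1.40% ± 0.151 of the reads at day 0 and 4.42% ± 1.58 at day 14 (mean ± SD, n = 3), with the highest share in replicate 3. The other arm of that hairpin, miR-21-3p, is far scarcer and also rose (1.13, adjusted p = 0.00011). Both arms of miR-31, which is raised in wounded epithelium, rose too (1.60 for the 5p and 1.78 for the 3p arm). The 3p arm averaged 0.344 ± 0.207 CPM at day 0 (mean ± SD, n = 3), a few reads per library. An arm that scarce at day 0 could pass the filter only through other days, which favours a rise, so its call adds no weight to the list.

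A few more of the 10 largest rises belong to no list. The imprinted miR-298-5p, from the Nespas/Gnas region, was scarce at day 0, at 2.34, 1.91 and 3.18 CPM, and stood at 15.2, 13.5 and 21.7 CPM at day 14. No library of either day overlapped, and the log2 fold change was 2.34 (SE 0.26, adjusted p = 3.97e-07). For miR-130b-3p, of the miR-130 and miR-301 family, the levels were 7.81, 11.7 and 7.82 CPM and 33.7, 28.3 and 32.7 CPM (1.71, SE 0.18, adjusted p = 1.58e-07). The remaining large rises were the scarcer mesenchymal arms miR-214-5p (1.71) and miR-199b-5p (1.64). Among other lists, all 5 members of the p53-induced miR-34 family were higher, with a median of 0.58, led by miR-34a-5p (0.87, adjusted p = 0.00257). Without replicate 3, 2 of the 5 were called. In the miR-183 cluster, known from sensory organs and epithelia, 3 of 4 were higher, miR-183-5p (1.48), miR-96-5p (1.38) and miR-182-5p (1.04), also without replicate 3. miR-375-3p, the islet marker in the list of other organs, was higher (1.51, adjusted p = 5.24e-08), at 201, 186 and 179 CPM and then 581, 447 and 598 CPM, while miR-9-5p of the same list was not called (-0.18, adjusted p = 0.333). The muscle miRNA miR-133a-3p, the 1 of its list of 5 that passed the filter, was not called either (-0.51, adjusted p = 0.191).

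**Figure D3:**
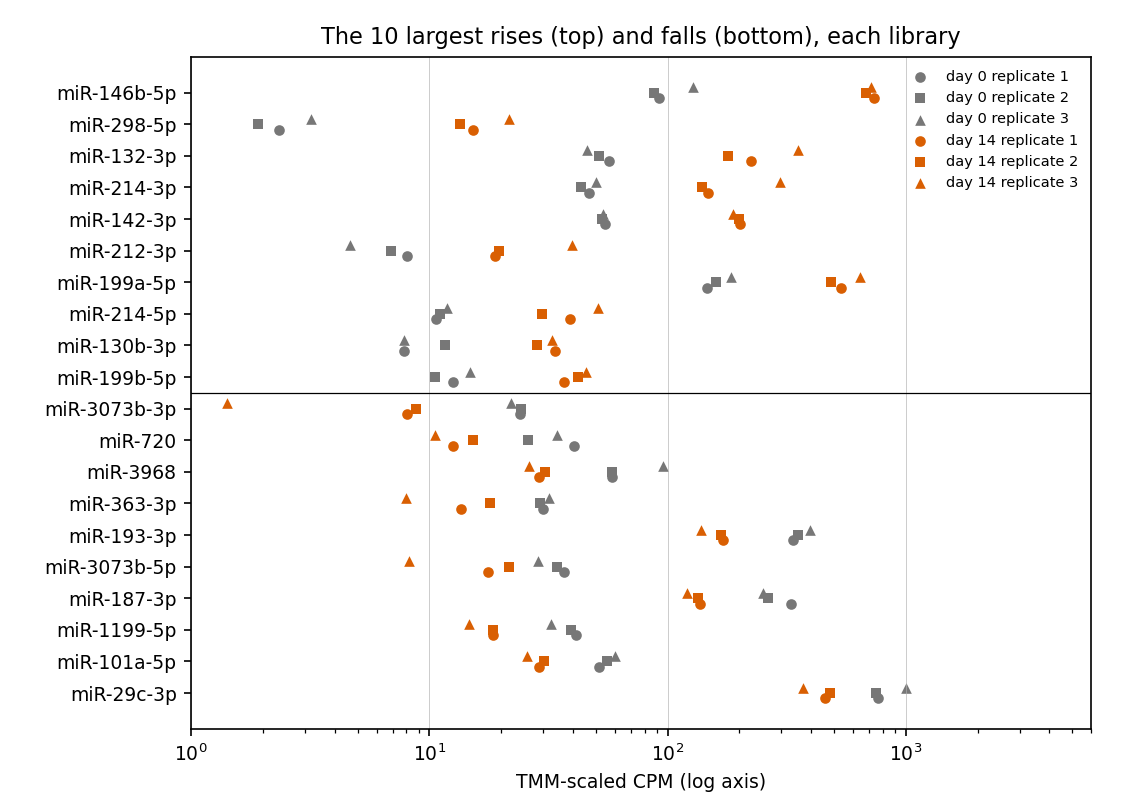
TMM-scaled CPM (log axis) of the 10 largest rises and the 10 largest falls, with 1 point for each library: grey for day 0, orange for day 14, and circle, square and triangle for replicates 1, 2 and 3. No orange point overlaps the grey points of the same miRNA; the triangle of day 14 is the outermost for miR-214-3p, miR-132-3p and miR-3073b-3p, but not for miR-142-3p or miR-146b-5p.

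The largest fall was that of miR-3073b-3p. Its levels were 24.0, 24.3 and 22.0 CPM at day 0 and 8.07, 8.77 and 1.41 CPM at day 14. All day 14 libraries were lower, replicate 3 by the most, and the log2 fold change of -2.03 (SE 0.34, adjusted p = 7.39e-05) was -1.39 without that library. The other arm, miR-3073b-5p, also fell (-1.12), from 36.7, 34.2 and 28.7 CPM to 17.5, 21.6 and 8.24 CPM. Among called miRNAs of at least 10 CPM whose libraries do not overlap, by which the largest rises and falls were named, the next were miR-720 (-1.31, adjusted p = 0.00047), an entry later recognised as a fragment of a transfer RNA, and miR-3968 (-1.25, adjusted p = 0.00017). The level of miR-193-3p was 335, 354 and 397 CPM at day 0 and 171, 167 and 138 CPM at day 14 (-1.19, SE 0.19, adjusted p = 4.16e-05). For miR-187-3p the values were 328, 264 and 251 CPM and 136, 135 and 120.4 CPM (-1.09, SE 0.19, adjusted p = 0.000111). In both, the 3 day 14 libraries lay close together and at less than the lowest day 0 library. The scarce miR-1199-5p, which lies in an exon of 2210011C24Rik, fell likewise (-1.09, adjusted p = 9.18e-05).

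The miR-29 family lowers collagens and other matrix messages. Of the 5 arms on its list 2 were lower and 0 higher, also without replicate 3, with a median of -0.31. By DESeq2, with scaling by the DESeq2 size factors, and without day 14 replicate 2, 3 were lower. Over all 6 tested arms of the family 3 were lower, the added one being miR-29b-5p (-0.64, adjusted p = 0.0476), which was not called by edgeR or DESeq2, nor without day 14 replicate 3 (adjusted p = 0.235), day 0 replicate 3 or replicate 1 of either day. miR-29c-3p was at 761, 753 and 997 CPM at day 0 and at 456, 479 and 369 CPM at day 14 (-0.94, SE 0.14, adjusted p = 1.62e-05). Its more abundant relative miR-29a-3p fell by a smaller amount, from 2929, 3145 and 3776 CPM to 2399, 2324 and 2209 CPM (-0.50, SE 0.11, adjusted p = 0.00082). The third guide arm, miR-29b-3p, was not called (-0.31, adjusted p = 0.0738), and its groups overlap. All 4 of the miR-101 list, known to target the methyltransferase EZH2, were lower with or without replicate 3, with a median of -0.75. These 4 are not independent. The sequence of miR-101c lies within that of miR-101a-3p, so the counting could assign reads of 1 to the other, and miR-101a-5p shares a hairpin with miR-101a-3p. The abundant arm miR-101a-3p went from 13112, 14011 and 12272 CPM to 9019, 9190.3 and 7421 CPM (-0.62, SE 0.09, adjusted p = 1.43e-05). Its partner arm miR-101a-5p (-0.95), miR-101c (-0.87) and miR-101b-3p (-0.27) fell too, the last not without replicate 2 of either day and not when scaled to library totals. In the metabolic list 4 of 7 were lower and 0 higher, with a median of -0.54: miR-193-3p, both arms of miR-378, which lies in the gene of the coactivator PGC-1 beta (-0.66 for the 3p and -0.63 for the 5p arm), and miR-33-5p, which lies in the gene of the sterol regulator SREBP-2 (-0.54), whose call was lost without day 0 replicate 1 or day 14 replicate 2.

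The tubule-enriched miRNAs did not move as a block: of 8 tested, 3 were lower and 3 higher, with a median of 0.16. This even split depends on the choice of list. The tubular miR-30a-5p, counted below with its family, was lower (-0.43) and is not among the 8. miR-192-5p, among the most abundant tubular miRNAs, was at 124499.8, 129013 and 109143 CPM at day 0 and 75279, 72095 and 55529 CPM at day 14 (-0.85, SE 0.12, adjusted p = 9.52e-06, -0.73 without replicate 3). Its share of the reads was 11.4% ± 0.887 at day 0 and 6.58% ± 0.564 at day 14 (mean ± SD, n = 3). The scarce miR-215-5p with the same seed fell by a like amount (-0.86). miR-194-2-5p, whose hairpin neighbours that of miR-192 and which the table gives under this name, fell too (-0.70, adjusted p = 0.000356), though it is not counted among the 8, and miR-190-5p fell as well (-0.72, with 132, 175 and 82.4 CPM at day 14 against 202, 191 and 223 CPM at day 0). In the other direction, miR-204-5p, made from an intron of Trpm3, was at 325, 296 and 327 CPM and then at 528, 446 and 538 CPM (0.67, SE 0.10, adjusted p = 1.67e-05). The most abundant miRNA of all, miR-10a-5p of the Hox clusters, made up 12.6% ± 1.59 of the reads at day 0 and 17.5% ± 0.614 at day 14 and was called higher (0.44, adjusted p = 0.0272), as was miR-196b-5p (0.28). Both calls are weak: each was lost without day 0 replicate 3 and without day 14 replicate 1 or 2, that of miR-10a-5p also without day 0 replicate 1, and both under upper-quartile scaling. Outside the list, miR-22-3p, abundant in many tissues, made up 11.5% ± 0.829 of the reads at day 0 and 7.76% ± 0.638 at day 14 (-0.62, SE 0.09, adjusted p = 2.51e-05). The summed level of the list was 346568, 428027 and 370315 CPM at day 0 and 414473, 418086 and 330018 CPM at day 14, lowest in replicate 3.

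The miR-30 family, abundant in tubular and glomerular epithelium, had 3 of the 7 arms on its list lower and 0 higher, with a median of -0.35, and 2 lower without replicate 3. Over all 10 tested arms 4 were lower and 0 higher, with a median of -0.31, and 3 were lower without replicate 3. The added call, miR-30c-3p (-0.30), was not made with library totals or when day 0 replicate 2 was left out. Its most abundant member, miR-30a-5p, was at 72740.0, 89377 and 79082 CPM at day 0 and at 65368, 65867 and 48824 CPM at day 14 (-0.43, SE 0.11, adjusted p = 0.00414). In miR-30e-5p only replicate 3 was clearly below day 0, with 24545, 25941 and 14273 CPM against 23578, 28146 and 30413 CPM, and it was not called (-0.38, adjusted p = 0.058). miR-30c-5p was alike, at 16432, 16458 and 9907 CPM against 15364, 16874 and 19717 CPM (-0.31, adjusted p = 0.134). The list medians of the 3 day 14 libraries, each against the day 0 mean, were -0.12, -0.20 and -0.71. The epithelial miR-200 family, which keeps ZEB1 and ZEB2 low, had 3 of the 7 arms on its list lower and 1 higher. Of all miRNAs, 17.9% were lower and 25.1% higher. Those lower were miR-200a-3p (-0.49, adjusted p = 0.000444) and the scarce arms miR-200a-5p (-0.51) and miR-200b-5p (-0.39), while miR-200c-3p was higher (0.52, adjusted p = 0.00574), a call lost without day 0 replicate 1. The 1 other tested arm, miR-141-5p, was called higher (0.56, adjusted p = 0.0295), but not without replicate 1 or 3 of either day (adjusted p = 0.126 without day 14 replicate 3). In the let-7 list 2 of 9 were higher and 1 lower, so its counts do not exceed the shares over all miRNAs. Of the 9 other tested arms of these hairpins let-7i-3p was higher (0.80, adjusted p = 0.00125). let-7i-5p stood out, with 2976, 2624 and 2479 CPM at day 0 and 6348, 5366 and 9289.8 CPM at day 14 (1.34, SE 0.14, adjusted p = 1.75e-07, 1.10 without replicate 3). let-7e-5p was also higher (0.58) and let-7g-5p lower (-0.32), and without replicate 3 let-7d-5p was called lower too (-0.33, adjusted p = 0.0162).

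Some lists lost calls without the library that stood apart. The endothelial miR-126 was called lower in both arms, but with small changes (-0.33 for the 3p and -0.29 for the 5p arm), and neither stayed called without replicate 3 (adjusted p = 0.0841 and 0.274), nor the 5p arm without day 0 replicate 1 or 2. The erythroid list split the libraries another way. miR-486-5p was at 2650.4, 2825 and 1031 CPM at day 0 and 2289.8, 702 and 518 CPM at day 14, and miR-451 at 514, 452 and 212 CPM and 393, 117 and 162 CPM. Day 14 replicate 1 came near day 0 replicates 1 and 2, while day 14 replicates 2 and 3 were lower, and day 0 replicate 3 was also low. Both arms of miR-144, of the same transcript as miR-451, were called lower (-1.55 and -1.62) although their groups overlap, and neither was called without replicate 3 (adjusted p = 0.0645 and 0.132), nor without day 0 replicate 1 or 2, nor by DESeq2. Without day 14 replicate 2 the list also had 0 lower, and without day 14 replicate 1 all 4 were lower. The summed erythroid level was 3259, 3380.1 and 1293 CPM at day 0 and 2755, 834 and 694 CPM at day 14, and how much blood each kidney held was not tested. Reads of miR-486-5p and of the near-identical entry miR-3107-5p cannot be told apart, and the values of the latter nearly equal the former's in each library.

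Cluster by cluster, the proliferation-linked miR-17 to miR-92 clusters (miR-17 to miR-92a and miR-106b to miR-25) held 6 of the 13 listed arms higher and 0 lower, 5 without replicate 3, with a median of 0.37. Over all 16 tested arms 8 were higher and 0 lower, again 5 without replicate 3. The added calls, miR-92a-5p (0.37) and miR-93-3p (0.52), were both lost without day 14 replicate 3 (adjusted p = 0.0692 and 0.0628). Their log2 fold changes then moved little, to 0.33 and 0.49. Both calls were also lost without day 0 replicate 1, and DESeq2 called neither. The first was lost without day 0 replicate 3 as well, the second without day 0 replicate 2 or day 14 replicate 1. The largest rise in these clusters was that of miR-19a-3p, from 16.9, 20.7 and 23.7 CPM to 48.4, 70.2 and 61.2 CPM (1.5, SE 0.21, adjusted p = 7.94e-06), and miR-19b-3p with the same seed rose too (1.22). The related X-linked miR-106a to miR-363 cluster had 0 of 3 higher and 2 lower. miR-363-3p went from 29.95, 29.1 and 31.8 CPM to 13.6, 17.9 and 8.01 CPM (-1.21, SE 0.23, adjusted p = 0.000356, -0.93 without replicate 3). Its neighbour miR-20b-5p was lower as well (-0.86), but not without that replicate (adjusted p = 0.16) or day 0 replicate 3. These relatives differ at few bases, so the counting could assign reads of 1 to another. Of the 4 miRNAs with the seed AUUGCAC printed above, miR-25-3p (0.38) and miR-92b-3p (0.46) were higher and miR-363-3p and miR-32-5p (-0.52) lower. The first pair was no longer called without day 14 replicate 3 (adjusted p = 0.111 and 0.0654), nor miR-25-3p without day 0 replicate 3, nor miR-92b-3p without replicate 1 of either day. The most abundant with this seed, miR-92a-3p, was not called (0.24, adjusted p = 0.0526). Among the 35 seeds shared by at least 2 tested miRNAs with a sequence, 14 had 2 or more members called. In 8 of these the called members were all higher, in 3 all lower, and in 3 they went both ways, the last being this seed, that of miR-17-5p and that of let-7. By hairpin, 150 had both arms tested: in 22 both were higher, in 15 both were lower, in 0 they were called in opposite directions (by limma, also at an unadjusted p under 0.05, and by edgeR and DESeq2), in 59 just 1 arm was called and in 54 neither. The seed and hairpin counts come from the fit of all libraries. Without day 14 replicate 3, miR-93-5p and miR-20b-5p were not called (adjusted p = 0.133 and 0.16). The seed of miR-17-5p then no longer went both ways, nor did AUUGCAC. Both arms of miR-126, miR-144, miR-34b and miR-93 lost their calls too.

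The other lists held smaller or mixed changes, to be read against the 25.1% higher and 17.9% lower among all miRNAs. In the miR-181 list 2 of 4 were higher, miR-181d-5p (1.44, adjusted p = 1.82e-07) and miR-181c-5p (0.62, adjusted p = 0.000117), and of the 3 other tested arms miR-181c-3p (1.24) and miR-181a-3p (0.54) were higher. In the miR-15 and miR-16 list 2 of 5 were higher, miR-15b-5p (0.53) and miR-195-5p (0.47). In the miR-322 and miR-503 list 2 of 6 were lower, miR-322-3p (-0.50) and miR-450a-5p (-0.44), the latter not without replicate 3 of either day. The main arm miR-322-5p was at 465, 545 and 587 CPM at day 0 and 752, 740.4 and 411 CPM at day 14; replicate 3 was below day 0 and the other 2 above it, so that miR-322-5p was not called with it (adjusted p = 0.376) and was called higher without it (0.47, adjusted p = 0.0276). None of the 13 tested members of the imprinted Dlk1-Dio3 cluster was called by limma (median 0.33); 3 were higher at an unadjusted p under 0.05, and edgeR called 1 and DESeq2 0. Limma called 2 of them higher without day 14 replicate 1 and 1 without replicate 2. Neither arm of the hypoxia-induced miR-210 was called by limma, edgeR or DESeq2, with 0 at an unadjusted p under 0.05. In the other lists with 0 members called in a direction, limma also had 0 in that direction at an unadjusted p under 0.05, and edgeR and DESeq2 called 0.

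**Figure D4:**
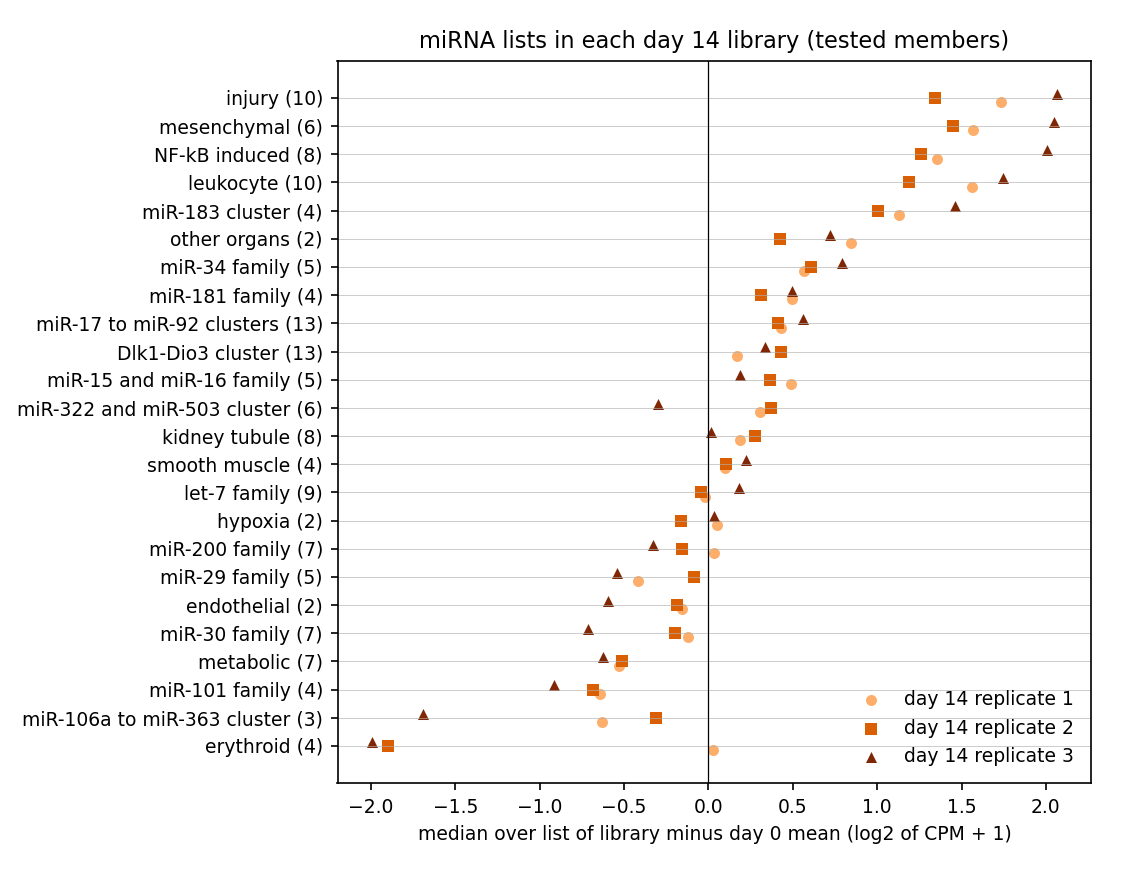
For each list of miRNAs (number tested in parentheses), the median over its members of the log2 level minus the day 0 mean, drawn for day 14 replicates 1, 2 and 3. Replicate 3 lies farthest to the right for the injury, mesenchymal and NF-kB lists and farthest to the left for the miR-30, miR-101 and miR-106a to miR-363 lists; in the erythroid list replicate 1 is at 0.02 and the others at -1.90 and -2.0.

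The distance of replicate 3 was not the same for all miRNAs. Its log2 level was over 0.5 above the mean of replicates 1 and 2 for 68 of the 431 and over 0.5 below it for 58, while replicates 1 and 2 were over 0.5 apart for 63. Of the 108 miRNAs called higher than day 0, replicate 3 was the farthest from day 0 in 66, and of the 77 called lower in 54. Over all 431, it was the highest of day 14 in 166 and the lowest in 173. All day 14 libraries lay beyond day 0 in most of the called miRNAs. Replicates 1, 2 and 3 lay above every day 0 library for 107, 103 and 107 of the 108. They lay below every day 0 library for 74, 73 and 77 of the 77. The calls were made from these same libraries, so these counts largely follow from the selection and are not independent evidence. Replicate 3 was the farthest out in miR-214-3p, miR-132-3p, miR-21-5p, let-7i-5p and miR-3073b-3p, yet its miR-142-3p and miR-146b-5p were within the range of its fellows or just under it. Among miRNAs with at least 50 CPM at day 14, the widest ranges over the 3 libraries belonged to miR-486-5p, miR-3107-5p, miR-5109, miR-451, miR-5115 and miR-365-3p. The erythroid ones were highest in replicate 1, whereas miR-5109 (58.5, 169 and 40.3 CPM) and miR-5115 (32.7, 97.5 and 56.3 CPM) were highest in replicate 2. In miR-365-3p, with 77.2, 97.8 and 42.2 CPM, replicate 3 was the lowest.

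The days on either side of day 14 show where it lies in the course. These comparisons share the day 14 libraries with the one above, so their values are given side by side and not counted against each other. Against day 7, 19 of the 431 were called (4.41%), 5 higher and 14 lower. The falls included miR-21-3p, at 829.9, 826 and 758 CPM at day 7 and 343, 267 and 529 CPM at day 14 (-1.14, SE 0.20, adjusted p = 0.00442), and miR-18a-5p, made from the same transcript as miR-17-5p (-1.0, adjusted p = 0.00623). They also included miR-223-3p (-0.88), miR-212-3p (-0.85) and miR-106b-5p (-0.81), and 7 of the 13 listed arms of the proliferation-linked clusters were lower than at day 7. The 5 that rose were miR-874-3p (0.76), miR-30e-3p (0.52), miR-181a-5p (0.52), miR-181c-5p (0.42) and miR-26a-5p (0.32). The level of miR-146b-5p was 904, 616 and 495 CPM at day 7, and no difference was called (0.13, adjusted p = 0.826). The number called was 46 without day 14 replicate 3, 7 without replicate 1, 5 without replicate 2, 6 and 10 without day 7 replicates 1 and 2, and 0 in a fit of these 2 days alone (44 at an unadjusted p under 0.05). Of the 10 named, miR-21-3p and miR-181a-5p were called whichever of the 6 libraries was left out, and each of the others lost its call in at least 1 such fit. Under upper-quartile scaling, which moves the median log2 fold change of all miRNAs by 0.14, the split was 14 higher and 6 lower.

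By day 28, 53 of the 431 were called different from day 14 (12.3%), 20 higher and 33 lower. By the same naming rule, the largest falls were in miR-132-3p (-1.17, adjusted p = 0.00114), miR-146b-5p (-1.15, adjusted p = 0.00164), miR-19a-3p (-0.98), miR-21-5p (-0.94) and miR-96-5p (-0.93). miR-146b-5p was at 377, 289 and 299 CPM at day 28, below every day 14 library and above every day 0 library. The largest rises were in miR-3073b-3p (1.46, adjusted p = 0.00946), miR-1199-5p (0.91), miR-3968 (0.75), miR-215-5p (0.66) and miR-29c-3p (0.61). miR-3073b-3p reached 16.6, 16.3 and 13.5 CPM and miR-29c-3p 641, 744 and 595 CPM at day 28, between their levels at day 14 and day 0. Of the 10 named, miR-132-3p, miR-146b-5p, miR-19a-3p, miR-21-5p and miR-1199-5p were called whichever of the 6 libraries was left out. The number called was 13 without day 14 replicate 3, 11 without day 28 replicate 2 and 35 without day 28 replicate 1. With scaling to library totals, which moves the median log2 fold change of all miRNAs by -0.12, it was 5 higher and 51 lower, and with upper-quartile scaling 3 higher and 48 lower.

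**Figure D5:**
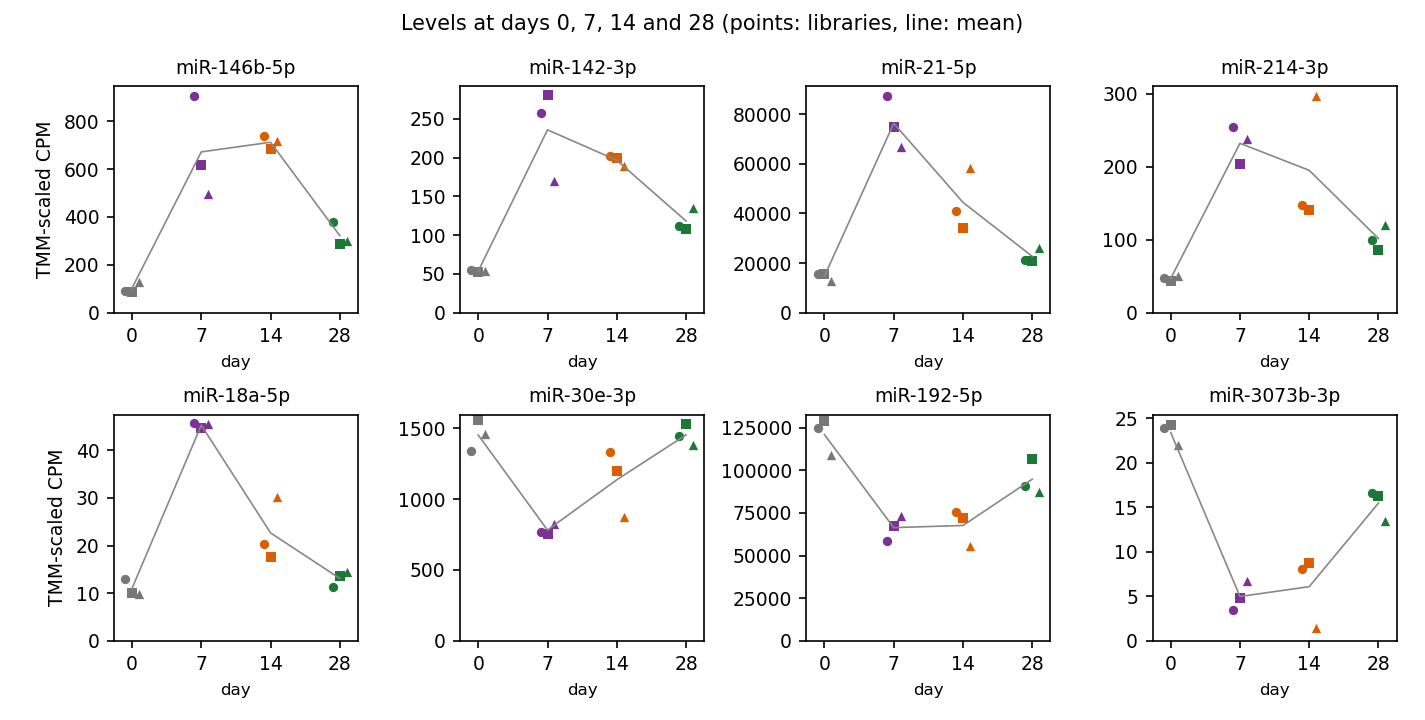
TMM-scaled CPM of 8 miRNAs at days 0, 7, 14 and 28, spaced equally along the axis, with the 3 libraries of a day as circle (1), square (2) and triangle (3) and a line through the day means. At day 14 the triangle lies nearer to day 7 than the other 2 symbols for miR-21-5p, miR-18a-5p and miR-30e-3p, while the 3 symbols of miR-142-3p and miR-146b-5p nearly coincide.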

How the data were processed

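Small RNA from whole mouse kidney was sequenced in 21 libraries (TruSeq small RNA kit on an Illumina HiSeq, per the labels' protocols). The values the authors deposited are CPM, in which every library has the same total, for 1125 mature miRNAs. CASAVA 1.8 and the genome build mm9 are named per the submitters' processing notes; which aligner, counter and miRBase version were used is not given in the sources used here. Each column was divided by its CPM of 1 read: 100% of the values came out within 0.05 of a whole read, and depth ranged from 2875675 to 7110546 reads. Of the listed miRNAs 250 had no read. CPM are shares of a library, so a rise of abundant miRNAs lowers all others; TMM scaling tempers this.

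Groups came from the sample labels. miRNAs were kept by edgeR 4.0.16 filterByExpr (minimum count 10). The test was limma 3.58.1 (trended empirical Bayes) on log2(TMM-scaled CPM + 1) fitted once to the 21 libraries, each of the 7 days having its own mean, 2-sided, with Benjamini-Hochberg adjustment over 431 miRNAs. The script was tested on simulated data. Count tests on the recovered reads, with edgeR and with DESeq2 1.42.0, were alternatives and called 184 and 180 miRNAs.

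The named miRNAs are the 10 largest rises and falls among called miRNAs of at least 10 CPM whose libraries do not overlap (the 5 largest for the other 2 comparisons), the 10 most abundant, the 6 with the widest day 14 range at 50 CPM or more, and members of the lists; other tested arms of the listed hairpins were added after their values were seen. The comparison and the lists were chosen with earlier results of these data known. Sequences and coordinates come from RefSeq (GRCm38.p6) and host genes from GENCODE M21 of that build, not mm9.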

Additional observations from a re-analysis of the deposited data

How the results depend on the processing

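With day 14 against day 0, the alternatives kept the number called within 1.5 times of 185: it was 178 with library totals, 189 with the DESeq2 size factors, 179 with upper-quartile scaling, 174 without a filter, 153 at a mean of at least 10 CPM, 134 in a fit of the 2 days alone, and 159 to 188 with 1 library left out. The calls higher ranged from 92 to 112 and the calls lower from 66 to 84 with 1 library left out. Of 88 called miRNAs named here, 66 kept their call under every alternative and 0 changed sign. Of those not called, the log2 fold change of miR-143-3p was -0.00309 with array weights and -0.0912 to 0.130 with 1 library left out, and that of miR-150-5p was -0.0253 to 0.292 with 1 left out.

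Against day 7, where 19 were called, the number was 8 without a filter, 48 with array weights, 0 in a fit of the 2 days alone (44 at an unadjusted p under 0.05), and 5 to 46 with 1 library left out. Between day 14 and day 28, where 53 were called, it was 19 without a filter, 24 in a fit of the 2 days alone, and 11 to 70 with 1 library left out. The day 14 median SD was 0.248 with library totals and 0.214 at a mean of at least 10 CPM. The cause of these differences was not tested, beyond the fewer libraries or more miRNAs that such a fit has.

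With a replicate block the number called against day 0 was 185, of which 181 were the same miRNAs, and it was 16 against day 7 and 52 for day 28. The same-numbered libraries of day 0 and day 14 correlated at -0.05, -0.10 and -0.07 in their deviations from the day means. Differently numbered ones correlated at -0.04 to 0.11. No pairing by number was seen, and whether the numbers mark a shared batch was not tested. Only 3 libraries a day limit what can be called, and miRNAs of a few reads have folds that depend on the pseudocount.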

Other observations

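Outside the lists, several abundant miRNAs also differed between day 14 and day 0; they were chosen here after their values were seen. miR-148a-3p was at 2345, 2581 and 2035 CPM at day 0 and at 4764, 4479 and 3863 CPM at day 14 (log2 fold change 0.91, limma adjusted p = 0.000535). The seed relatives miR-23a-3p (0.61) and miR-23b-3p (0.63) were both higher. miR-107-3p was lower, with 2776, 2801 and 2383 CPM at day 0 and 1654, 1648 and 1076 CPM at day 14 (-0.89, adjusted p = 4.16e-05). In each of these miRNAs the 3 libraries of day 14 lay on 1 side of the 3 of day 0, and the call was kept whichever of the 6 libraries was left out. Other seed relatives were not called: miR-148b-3p (0.11) and miR-152-3p (-0.08), with the seed of miR-148a-3p, and miR-103-3p, with that of miR-107-3p.

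The repeat families miR-466, miR-467 and miR-669, many copies of which lie in an intron of Sfmbt2 in the mouse, were also grouped after their values were seen. Of the 18 tested 15 were called higher by limma and 0 lower, with log2 fold changes of 0.81 to 1.28 among those called. Over all 431 miRNAs 25.1% were called higher. The lowest mean at day 0 was 0.064 CPM, and a member that scarce could pass the filter only through other days. The filter thus favours rises over falls in this group. Several hold the same values in every library, which leaves 11 distinct sets of values, 9 of them called higher, and 9 also without day 14 replicate 3. The members are scarce, with means of at most 3.39 CPM at day 0 and 8.50 CPM at day 14. Summed over the 11, the level was 20.6, 24.3 and 18.5 CPM in the day 0 libraries and 50.4, 56.7 and 51.8 CPM in the day 14 libraries. Here replicate 3 was not apart from the other day 14 libraries. How reads that match many copies were counted is not given in the sources used here.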
